A study of Mus musculus with 10 samples.

Results

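Retinoic acid, the active form of vitamin A, is made and destroyed inside the eye wall, and 10 genes of its synthesis, breakdown, transport and reception were followed here in mouse RPE, choroid and sclera (the retinal pigment epithelium, the bed of vessels that feeds the outer retina, and the fibrous white of the eye). The genes were taken by name (Aldh1a1, Aldh1a2, Aldh1a3, Dhrs3, Cyp26a1, Cyp26b1, Crabp1, Rara, Rarb and Rarg), and all 10 were found among the 26360 genes listed. RNA sequencing covered 10 libraries from 5 wild-type C57BL/6J mice at postnatal day 34, the right eye (n = 5) and the left eye (n = 5) of animals 61, 64, 65, 66 and 68. Each mouse had worn a -20 D lens, which places the focus behind the retina and leads to myopia, over a single eye for 10 days from postnatal day 24. The labels give the side of each eye and not which eye carried the lens, so a right minus left difference has no treatment direction.

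Retinoic acid is made from retinol in a reversible first step, in which retinol dehydrogenases form retinaldehyde and reductases such as Dhrs3 turn it back, and a committed second step, in which the ALDH1A enzymes oxidise retinaldehyde. The acid is carried in the cytosol by binding proteins such as Crabp1, switches genes through the receptors Rara, Rarb and Rarg as partners of the RXR receptors, and is oxidised to inactive products by the CYP26 enzymes. Work in chicks and other animals has linked choroidal retinoic acid to eye growth, with the choroid as its main site of synthesis behind the retina. Several genes of the pathway, among them Cyp26a1, Rarb and Dhrs3, are known targets of retinoic acid themselves.

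The promoters of Cyp26a1 and Rarb are shown because, among the windows at hand for these genes, they held the motif that retinoic acid receptors bind. The windows are the 250 bases before a RefSeq start site (GRCm38.p6), printed 5′ to 3′ on the strand of the gene. Capitals mark a direct repeat of the receptor's core motif. The core was taken as AGGTCA in its usual form, with AGTTCA as a variant spelling, GGGTCA as another and also the spelling GGTTCA, and repeats were sought on both strands with 1, 2 or 5 bases between the copies.
Cyp26a1 (chr19:37697558-37697807, plus strand): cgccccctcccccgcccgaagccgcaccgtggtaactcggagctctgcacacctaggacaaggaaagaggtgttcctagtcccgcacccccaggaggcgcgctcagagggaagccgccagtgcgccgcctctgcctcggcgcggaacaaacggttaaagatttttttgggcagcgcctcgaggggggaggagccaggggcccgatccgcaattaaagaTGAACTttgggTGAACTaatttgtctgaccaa
Rarb (chr14:16575477-16575726, minus strand): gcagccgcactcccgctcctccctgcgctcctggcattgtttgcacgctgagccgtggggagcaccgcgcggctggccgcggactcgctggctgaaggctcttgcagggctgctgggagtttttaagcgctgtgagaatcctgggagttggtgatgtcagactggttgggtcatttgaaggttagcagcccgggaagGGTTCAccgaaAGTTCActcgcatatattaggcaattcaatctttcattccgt

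Both repeats have 5 bases between their copies. Read in the same orientation, the sites were these:
Cyp26a1 site (opposite strand): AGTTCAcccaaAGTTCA
Rarb site: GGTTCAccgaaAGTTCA
The Cyp26a1 site lay 32 to 16 bases before the start, and the Rarb site 53 to 37 bases before it. The Rarb start is an internal one, since the deposited gene runs from 16430839 to 16819156. A repeat with 5 bases between its copies was found in 29 of 32817 promoter windows of the same length (0.0884%), and a repeat with any of the 3 spacings in 0.427%. RefSeq windows were at hand for 9 of the 10 genes (16 windows), and none of the other windows held such a repeat, which says only that these letters are not in those bases.

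The files listed the genes as CPM, read counts scaled to the size of the library. The step between low values implied 66.8 to 94.0 M reads per library, of which the listed genes held 42.7% to 47.1%, so that 3 reads corresponded to 0.0319 to 0.0449 CPM. This floor covers counting error only. Markers fitting the label were abundant, with summed levels of 5345 to 7077 CPM in right and 5142 to 5742 CPM in left eyes for 10 RPE genes and of 6660 to 9180 CPM in right and 6324 to 8872 CPM in left eyes for 10 scleral fibroblast genes. Markers of some tissues outside the label varied far more, but not of all. The 8 skeletal muscle genes summed to 3116 to 6566 CPM in right and 1843 to 8683 CPM in left eyes. The 6 genes of Mueller glia and astrocytes stayed within 1003 to 1380 CPM in right and 1121 to 1372 CPM in left eyes. The 8 rod genes summed to 146 to 1781 CPM in right and 218 to 856 CPM in left eyes, and the 8 genes of surface epithelium, the covering of cornea and conjunctiva, to 115 to 674 CPM in right and 278 to 877 CPM in left eyes. In such bulk samples fewer cells of a type and less RNA per cell cannot be told apart.

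Per kilobase of exon, the reductase and the first aldehyde dehydrogenase stood highest. Dhrs3 averaged 17.7 ± 2.58 CPM per kb (SD, n = 10 libraries), above 96.3% of the protein-coding genes listed, and Aldh1a1 13.5 ± 2.66 CPM per kb, above 94.7%. Dhrs3 was the higher of these in 9 of 10 libraries, but Aldh1a1 led (28.3 against 22.2 CPM per kb) when only the longest transcript was counted as length. Aldh1a2 (7.83 ± 1.67 CPM per kb), Rarg (6.40 ± 1.24 CPM per kb) and Cyp26b1 (6.16 ± 1.63 CPM per kb) followed close together. The order of these neighbours changed between libraries, with Aldh1a2 above Rarg in 6 of 10 and Rarg above Cyp26b1 in 7 of 10. Cyp26a1 (4.07 ± 1.26 CPM per kb) was likewise above Rarb (3.35 ± 0.294 CPM per kb) in 7 of 10. With the longest transcript as length, Rarg (9.23 CPM per kb) stood above Aldh1a2 (7.83), and Rarb (5.68) above Cyp26a1 (4.51). Rara (1.89 ± 0.264 CPM per kb), Aldh1a3 (1.53 ± 0.339 CPM per kb) and Crabp1 (0.467 ± 0.290 CPM per kb) closed the order, each below its upper neighbour in 10 of 10 libraries.

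**Figure D1:**
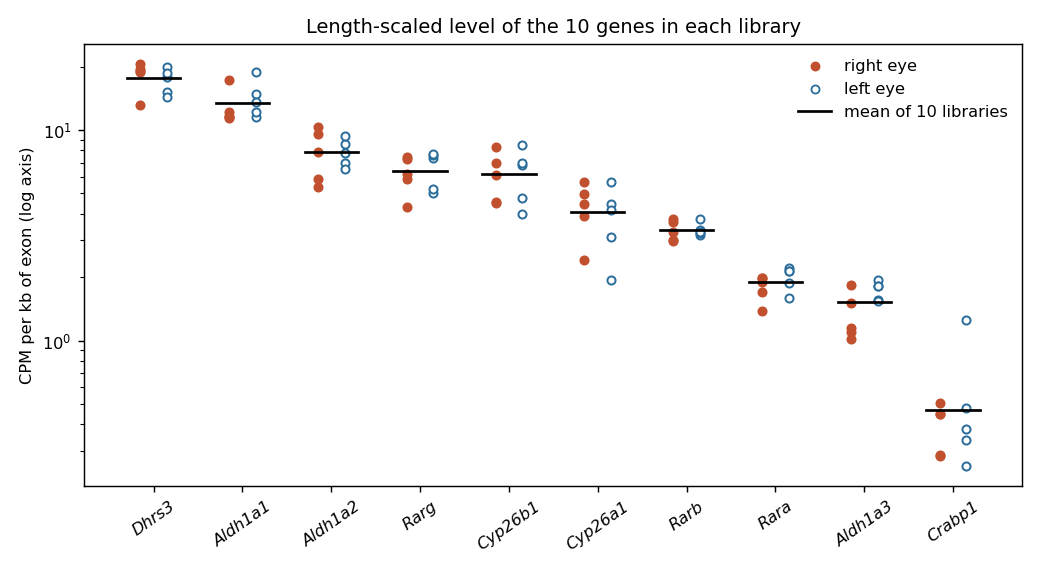
Each point is a library (right eyes filled, left eyes open), the vertical axis is the level in CPM per kb of exon on a log axis, and the black line is the mean of the 10 libraries. Dhrs3 and Aldh1a1 stand highest at means of 17.7 and 13.5 CPM per kb, and Crabp1 lowest at 0.467 CPM per kb.

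Within each step a single gene led on this scale. Among the synthesis enzymes Aldh1a1 exceeded Aldh1a2 in 10 of 10 libraries, and Aldh1a3 was far below both. Among the degrading enzymes Cyp26b1 exceeded Cyp26a1 in 10 of 10 libraries. The receptors ran Rarg, Rarb, Rara in order of length-scaled level.

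The question asked of fellow eyes was whether any of these genes differed between the right and left eye of the same animal. The lens side is not given and may differ between animals, so this difference neither tests nor bounds an effect of the lens. None of the 9 genes that averaged 1 CPM or more passed an adjusted p of 0.05 (limma, animal as a block, Benjamini-Hochberg over 15414 genes, adjusted p = 0.9998 for each), and 0% of all genes tested did. At an unadjusted p under 0.05 stood 1 of the 9, Aldh1a3, against 2.79% of all genes tested. The right and left ranges overlapped for all 10 genes, and how many of all genes tested do so was not counted. For Aldh1a3 they overlapped only through the right eye of animal 61 (8.45 CPM). Its other right eyes (4.68 to 6.95 CPM) lay below the lowest left eye (7.12 CPM).

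Aldh1a3 (ENSMUSG00000015134.15, chromosome 7, 66390890 to 66427517, minus strand, GRCm38) encodes the aldehyde dehydrogenase of the ventral retina and of several epithelia in the developing mouse. It was at 8.45, 6.95, 4.68, 5.30 and 5.06 CPM in the right eyes of animals 61, 64, 65, 66 and 68, and at 7.17, 8.995, 7.12, 8.38 and 8.41 CPM in their left eyes. The right eye was the lower one in every animal but 61. The difference was -0.41 ± 0.14 (log2 of CPM + 0.23, SE), with a 95% interval from -0.74 to -0.081 and an unadjusted p of 0.0213 in limma. Surface epithelium markers (8 of 8 detected, none at 0 in all libraries) moved in the same animals, with summed levels of 674, 302, 115, 139 and 224 CPM in the right eyes and 278, 649, 550.5, 877 and 449 CPM in the left eyes. They too were lower on the right in every animal but 61. With the mean of these markers as a covariate the Aldh1a3 difference was -0.21 (adjusted p = 0.9999 in limma), and their part in the result was not tested further.

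Aldh1a1 (ENSMUSG00000053279.8, chromosome 19, 20492715 to 20643465, plus strand), the aldehyde dehydrogenase of the dorsal retina in mice, was at 85.1, 60.0, 57.6, 56.6 and 56.9 CPM in right eyes and 93.1, 56.7, 73.2, 60.0 and 66.9 CPM in left eyes, in the same order of animals. Animal 61 was the highest in both eyes, and the right eye was the lower one in every animal but 64. The difference was -0.14 ± 0.066 (log2, SE; 95% interval -0.30 to 0.012, adjusted p = 0.9998 in limma). Reads of its close relative Aldh1a7, a mouse duplicate listed at 1.35 ± 0.451 CPM in right and 1.805 ± 0.374 CPM in left eyes (SD, n = 5 each), may be shared with it. The antisense gene C730002L08Rik overlaps it over 59616 bases but reached at most 0.108 CPM.

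Aldh1a2 (ENSMUSG00000013584.5, chromosome 9, 71215789 to 71296243, plus strand), the main embryonic retinaldehyde dehydrogenase and the enzyme studied in chick choroid, was at 12.1, 13.2, 23.4, 21.7 and 17.8 CPM in right eyes and 15.7, 14.8, 17.7, 19.5 and 21.3 CPM in left eyes. It was higher on the right in animals 65 and 66 only. The difference was -0.045 ± 0.11 (log2, SE), and its interval of -0.31 to 0.22 leaves room for changes of up to 1.17-fold upward and down to 0.805 of the left level.

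Dhrs3 (ENSMUSG00000066026.14, chromosome 4, 144892827 to 144928209, plus strand), which reduces retinaldehyde back to retinol, was at 57.1, 55.5, 55.8, 60.2 and 38.3 CPM in right eyes and 52.2, 58.1, 44.5, 54.6 and 41.8 CPM in left eyes. Animal 68 was the lowest in the right eye and in the left. The difference was 0.081 ± 0.071 (log2, SE; adjusted p = 0.9998 in limma).

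**Figure D2:**
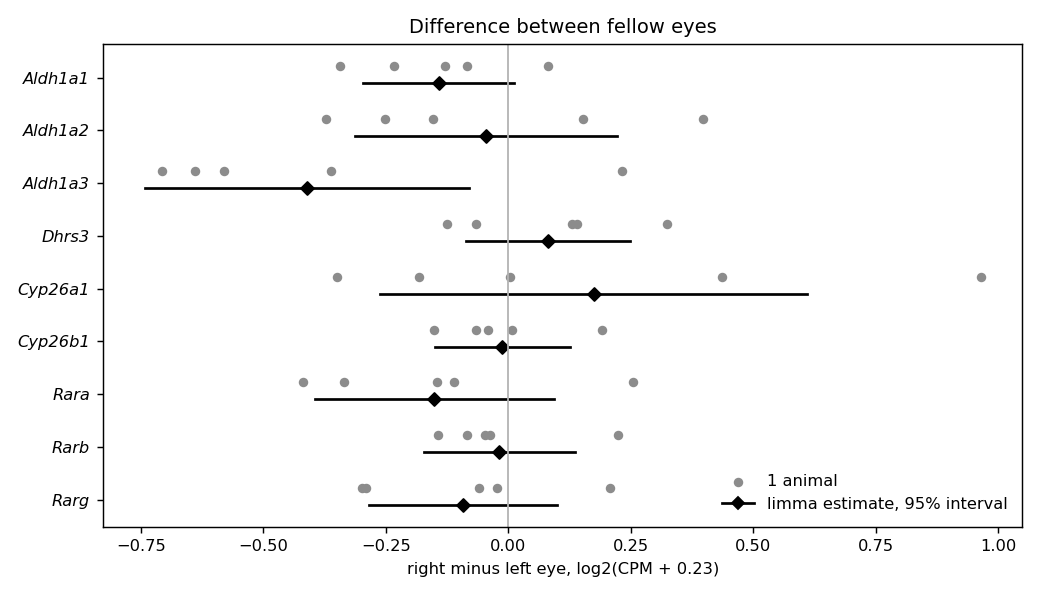
The horizontal axis is the right minus left difference in log2(CPM + 0.23). Grey points are the 5 animals, and diamonds with bars are limma's estimates with 95% intervals, of which that of Aldh1a3 alone stays on a single side of 0 (-0.74 to -0.081).

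The degrading enzymes ranged over similar folds between animals (1.92 for Cyp26a1 and 1.96 for Cyp26b1) but not within them. Cyp26a1 (ENSMUSG00000024987.6, chromosome 19, 37697798 to 37701536, plus strand), an enzyme strongly induced by retinoic acid, was at 9.85, 8.83, 7.74, 11.2 and 4.80 CPM in right eyes and 11.2, 8.82, 3.86, 8.24 and 6.18 CPM in left eyes. Its fellow eyes differed by up to 2.01-fold, in animal 65, and its difference of 0.17 ± 0.19 (log2, SE) was the least precise of the 9, with an interval from -0.26 to 0.61. Without animal 65 the estimate was -0.023.

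Cyp26b1 (ENSMUSG00000063415.12, chromosome 6, 84571414 to 84593908, minus strand), the second CYP26 enzyme, needed for skeletal and germ cell development in mice, was at 44.4, 32.9, 24.5, 37.5 and 24.2 CPM in right eyes and 45.7, 36.5, 21.4, 37.3 and 25.3 CPM in left eyes. Fellow eyes never differed by more than 1.14-fold, whereas the animals ranged over 1.96-fold. The right minus left difference was -0.012 ± 0.059 (log2, SE), and its 95% interval covered 0.901- to 1.09-fold.

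Among the receptors, Rara (ENSMUSG00000037992.16, chromosome 11, 98927818 to 98974942, plus strand), the broadly expressed member, was at 8.69, 7.39, 8.32, 8.62 and 6.06 CPM in right eyes and 9.64, 9.38, 6.94, 9.33 and 8.175 CPM in left eyes, lower on the right in every animal but 65 (-0.15 ± 0.10, log2, SE). Rarg (ENSMUSG00000001288.15, chromosome 15, 102234938 to 102257517, minus strand), the receptor typical of skin and cartilage, was at 31.0, 26.2, 24.9, 31.6 and 18.3 CPM in right eyes and 31.5, 32.3, 21.5, 32.9 and 22.4 CPM in left eyes (-0.093 ± 0.082, log2, SE). Again animal 65 was the exception with the higher right eye. Rarb (ENSMUSG00000017491.9, chromosome 14, 16430839 to 16819156, minus strand), itself induced by retinoic acid, was the steadiest of the 10, at 15.8, 17.2, 19.9, 19.2 and 15.6 CPM in right eyes and 16.8, 17.7, 17.0, 19.9 and 17.3 CPM in left eyes. Its coefficient of variation over the libraries was 8.78%, and its eyes differed by -0.018 ± 0.066 (log2, SE). It shares 4624 bases with Top2b on the opposite strand, which stood at 76.4 to 97.3 CPM. The sources used here do not say whether counting used strand, so Rarb values are uncertain to that extent.

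Crabp1 (ENSMUSG00000032291.8, chromosome 9, 54764748 to 54773110, plus strand), a cytosolic carrier of retinoic acid, was too low for the main test. It was at 0.226, 0.358, 0.407, 0.228 and 0.361 CPM in right eyes and 0.203, 0.304, 1.00, 0.269 and 0.382 CPM in left eyes, above the 3-read floor in every library. The left eye of animal 65 was 2.46-fold above its fellow eye, and no other library passed 0.407 CPM. With no filter on low values the difference was -0.18 (log2, adjusted p = 0.9999 in limma).

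**Figure D3:**
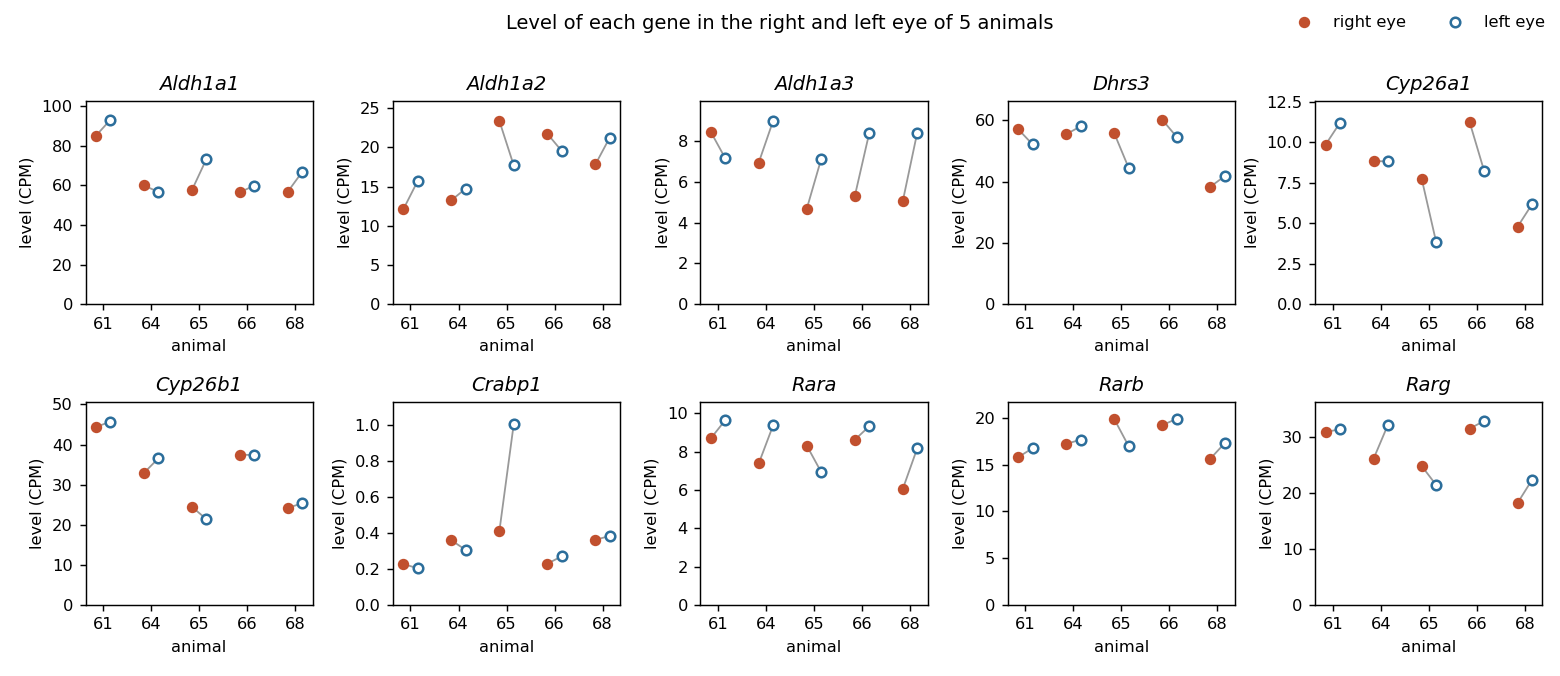
Each panel is a gene, the horizontal axis is the animal and the vertical axis the level in CPM from 0, with the right eye (filled) left of the left eye (open) and a line joining them. Fellow eyes of Cyp26b1 sit at almost the same level within each animal, and the right-eye points of Aldh1a3 lie below the left-eye points in every animal but 61.

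Of the 9 genes tested, 7 had 95% intervals within 1.5-fold in either direction, the exceptions being Aldh1a3 (0.598- to 0.945-fold) and Cyp26a1 (0.834- to 1.53-fold), and all 9 had intervals within 2-fold. The median difference of the 9 was -0.045, against -0.0079 over all genes tested, with 7 lower and 2 higher in the right eye. Of all 15414 genes tested, 8320 were lower and 7094 higher.

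A second question was whether the animals differed from each other more than fellow eyes did. Since an animal contributes a right and a left library, limma's moderated F test of the animal term sets the spread between animals against the spread left within them. None of the 9 genes passed an adjusted p of 0.05, and 0.0843% of all genes tested (13 of 15414) did. At an unadjusted p under 0.05 stood 6 of the 9, against 7.22% of all genes tested. These were Cyp26b1, Aldh1a1, Rarg, Dhrs3, Aldh1a2 and Cyp26a1, while Rarb, Rara and Aldh1a3 stood above it. The members share libraries and some of them vary together, so these 6 are not separate observations. The median F was 5.22 over the 9 genes and 1.14 over all genes tested.

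**Figure D4:**
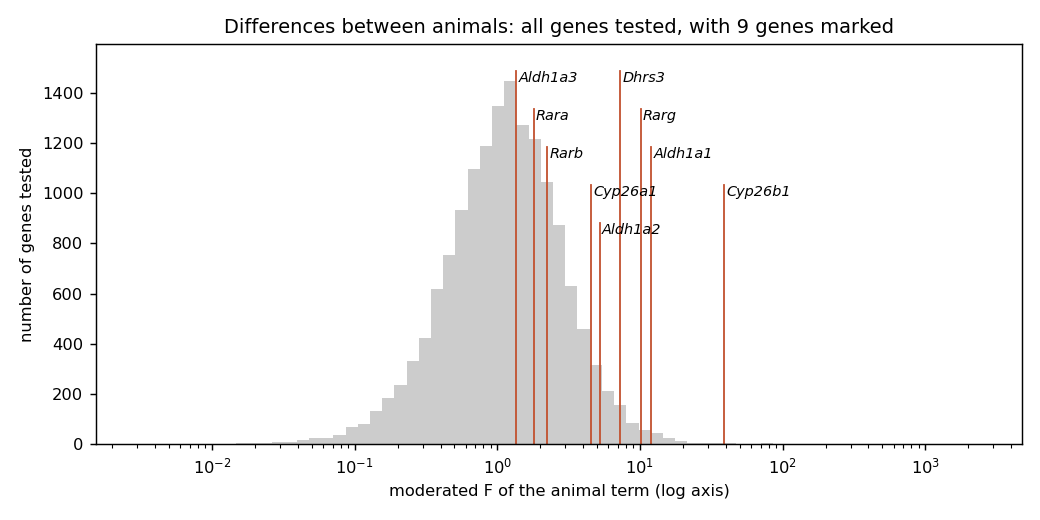
The grey histogram gives the moderated F of the animal term (log axis) for all 15414 genes tested, and red lines mark the 9 genes. Cyp26b1, at 38.7, lies furthest right, and Aldh1a3, at 1.35, lies near the median of 1.14.

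Cyp26b1 had the 15th highest F of the 15414 genes (F = 38.7, adjusted p = 0.0574 in limma). Its animal means ran 45.0 CPM in animal 61, 37.4 in 66, 34.7 in 64, 24.8 in 68 and 22.9 in 65, and the eyes of different animals overlapped only between 65 and 68. It missed the threshold in the main settings but passed it in 5 of 26 alternatives, among them median-of-ratios scaling (adjusted p = 0.0275 in limma) and array weights (adjusted p = 0.0237 in limma). Over the 26 the adjusted p ran from 0.0146 to 0.542 in limma, and with any animal or library left out it was at least 0.0788. Sex is not in the labels. Xist, the RNA that silences an X chromosome in females, averaged 755 and 798 CPM in animals 61 and 65. It averaged 4.92, 2.06 and 1.37 CPM in 64, 66 and 68. The animals with the highest and the lowest Cyp26b1 were thus the ones with high Xist. The part of sex in the Cyp26b1 values was not tested.

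Aldh1a1 (F = 11.99, unadjusted p = 0.00261 and adjusted p = 0.362 in limma) rested on animal 61, whose eyes averaged 89.1 CPM against 58.3 to 65.4 CPM in the other animals. Without animal 61 its F was 0.819. Aldh1a2 (F = 5.22, unadjusted p = 0.0270 and adjusted p = 0.606 in limma) divided the animals another way, at 13.9 and 14.0 CPM in 61 and 64 and at 20.5, 20.6 and 19.5 CPM in 65, 66 and 68. Aldh1a1 and Aldh1a2 thus ordered the animals differently.

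Cyp26a1, Cyp26b1, Rarg, Rara, Dhrs3 and Aldh1a3 divided the animals alike: for each of these 6 of the 9 genes tested, animals 61, 64 and 66 were the upper ones and 65 and 68 the lower ones. Rarg averaged 31.2, 29.3 and 32.3 CPM in 61, 64 and 66 and 23.2 and 20.4 CPM in 65 and 68 (F = 10.1, adjusted p = 0.416 in limma). Dhrs3 averaged 54.7, 56.8 and 57.4 CPM in the first set and 50.2 and 40.1 CPM in 65 and 68 (F = 7.23, adjusted p = 0.545 in limma), and its F was 1.67 without animal 68. Cyp26a1 averaged 10.5, 8.82 and 9.73 CPM in 61, 64 and 66 and 5.80 and 5.49 CPM in 65 and 68 (F = 4.55, adjusted p = 0.649 in limma). Rara averaged 9.17, 8.38 and 8.97 CPM in 61, 64 and 66 and 7.63 and 7.12 CPM in 65 and 68 (F = 1.80, adjusted p = 0.767 in limma). Aldh1a3 averaged 7.81, 7.97 and 6.84 CPM in 61, 64 and 66 and 5.90 and 6.73 CPM in 65 and 68 (F = 1.35, adjusted p = 0.803 in limma). Its gap was small (6.84 CPM in 66, 6.73 in 68). The genes were grouped after their values were seen, so the grouping is a description without a test. How many of all genes tested divide the animals this way was not counted. The division is therefore not shown to be particular to these genes. Over the 10 libraries Pearson's r between them ran from 0.116 (Aldh1a3 with Dhrs3) to 0.903 (Rara with Rarg), all from the same libraries and the same tissue mixture.

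Rod markers were highest, by animal mean, in the same animals 65 and 68. Their summed level (8 of 8 detected, none at 0 in all libraries) was 146, 568.1, 305, 162 and 1781 CPM in right eyes and 218, 404, 856, 378 and 238 CPM in left eyes of animals 61, 64, 65, 66 and 68. The right eye of animal 68, with the most rod RNA, had the lowest Rara, Rarb, Rarg and Dhrs3 of the 10 libraries, and the left eye of animal 65, second in rod RNA, had the lowest Cyp26a1 and Cyp26b1. Other libraries ran differently. The left eye of 68, at 238 CPM of rod markers, had Rarg at 22.4, Cyp26b1 at 25.3 and Dhrs3 at 41.8 CPM. The right eye of 64, at 568.1 CPM of rod markers, had these genes at 26.2, 32.9 and 55.5 CPM. With the rod marker mean as a covariate, F was 28.3 for Cyp26b1 (adjusted p = 0.116 in limma), 9.28 for Rarg, 10.3 for Dhrs3, 3.65 for Cyp26a1, 0.632 for Rara and 1.11 for Aldh1a3, and 5 of the 9 genes had an unadjusted p under 0.05 against 7.79% of all genes tested. Surface epithelium markers divided the animals as these genes did, with mean summed levels of 476, 475.5 and 508.0 CPM in 61, 64 and 66 and 333 and 336.5 CPM in 65 and 68. With their mean as a covariate, F was 32.0 for Cyp26b1 (adjusted p = 0.152 in limma), 8.81 for Rarg, 6.615 for Dhrs3, 9.35 for Cyp26a1, 1.94 for Rara and 0.751 for Aldh1a3. The part of either tissue in the division of the animals was not tested further.

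**Figure D5:**
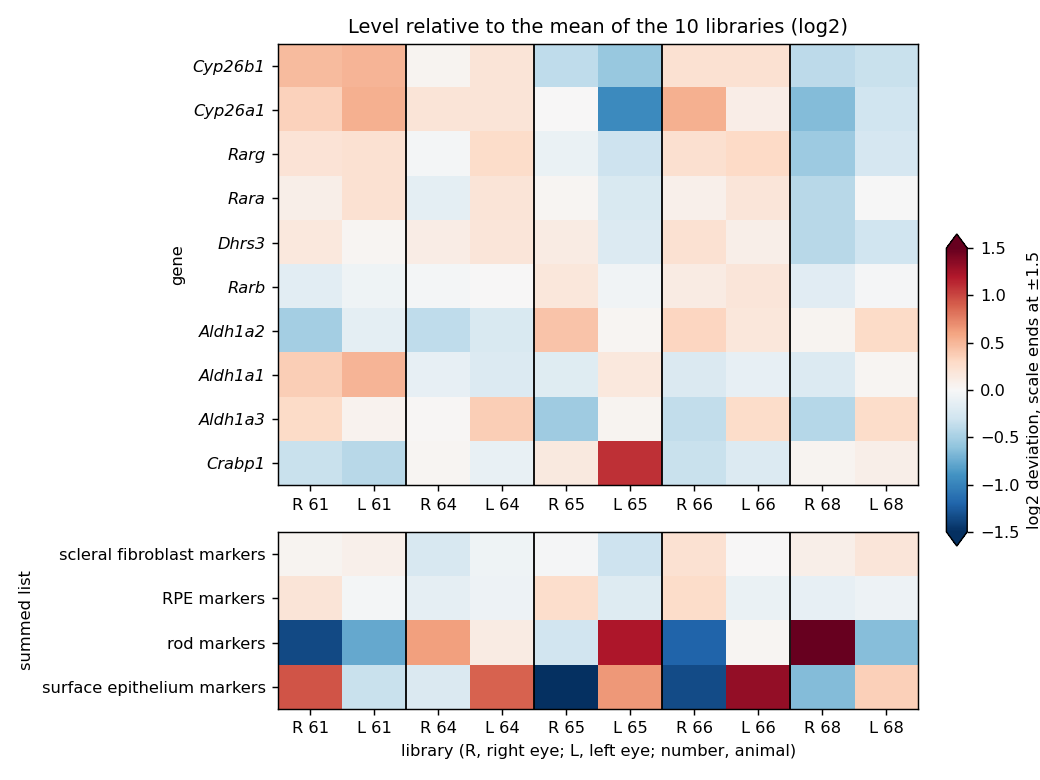
Colour gives the log2 deviation of each library from the mean of the 10, for the 10 genes (upper block) and for 4 summed marker lists (lower block), with fellow eyes side by side, right before left. Cyp26b1 is high in both eyes of animal 61 and low in both eyes of 65 and 68, and the rod row is highest in the right eye of 68 (1781 CPM).

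The pathway around these genes was described through 60 further genes in 5 lists, of which 45 passed the same level filter. None of the 45 passed in either comparison. At an unadjusted p under 0.05 stood 7 of 45 between the eyes (against 2.79% of all genes tested) and 7 of 45 between animals (against 7.22%). Of the dehydrogenases and reductases that interconvert retinol and retinaldehyde, 11 of 15 were tested with 3 (Rdh11, Rdh13 and Adh7) under an unadjusted p of 0.05 between the eyes and 0 between animals. Rdh5 and Rdh10, an RPE retinol dehydrogenase and the enzyme that supplies retinaldehyde for retinoic acid, were at 93.3 and 71.1 CPM per kb. Rdh5 was at 281.0 ± 44.0 CPM in right and 243 ± 10.2 CPM in left eyes (SD, n = 5 each; 0.20 ± 0.097, log2, SE). Rdh10 was at 312.5 ± 46.2 CPM in right and 279 ± 11.7 CPM in left eyes (0.15 ± 0.080, log2, SE), and neither passed.

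The highest carriers and storage genes were those of the RPE, with Ttr, the retinol carrier transthyretin, at 1325 CPM per kb and Rpe65, the retinoid isomerase of the visual cycle, at 401.5 CPM per kb. Of this list 12 of 15 were tested, with 5 lower and 7 higher in the right eye and a median difference of 0.13. Over all 15414 genes tested, 8320 were lower and 7094 higher. Of the RPE markers, 9 of 9 tested had a higher mean in the right eye with a median difference of 0.19, none passing the test, and their part in the values of these RPE genes was not tested. Among other retinoic acid enzymes only 2 of 5 were tested, Aldh1a7 and Cyp1b1, a cytochrome P450 mutated in human congenital glaucoma, and the third CYP26 gene, Cyp26c1, averaged 0.0420 CPM in right and 0.0432 CPM in left eyes, near the 3-read floor. Cyp1b1 averaged 28.9 ± 6.40 CPM in right and 29.95 ± 4.77 CPM in left eyes (SD, n = 5 each). Its animal means were 31.7, 35.3 and 32.3 CPM in 61, 64 and 66 and 24.3 and 23.4 CPM in 65 and 68 (F = 7.02, adjusted p = 0.546 in limma), the division of animals seen for Cyp26b1.

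All 10 of the RXR partners and coregulators were tested. Rxra, the main partner of the retinoic acid receptors, was at 9.11 CPM per kb and Ncoa3, a coactivator, at 8.85 CPM per kb, and the median right minus left difference of the list was -0.015. Rxra averaged 53.7, 53.9 and 51.0 CPM in 61, 64 and 66 and 45.6 and 44.6 CPM in 65 and 68 (F = 4.73, unadjusted p = 0.0343 and adjusted p = 0.638 in limma). Of the retinoic acid targets 10 of 15 were tested, with 9 lower and 1 higher in the right eye (median -0.068, against -0.0079 over all genes tested). Of all 15414 genes tested, 8320 were lower. The targets share libraries and tissue mixture, so they are not separate observations. Tgm2, a transglutaminase induced by retinoic acid, was at 35.8 ± 5.37 CPM in right and 40.15 ± 7.08 CPM in left eyes (SD, n = 5 each; -0.16 ± 0.066, log2, SE; unadjusted p = 0.0455 and adjusted p = 0.9998 in limma). Rarres2, which encodes the chemoattractant chemerin, was at 11.1 CPM per kb, with 28.6 ± 2.22 CPM in right and 30.1 ± 3.75 CPM in left eyes. Of the 7 pathway genes under an unadjusted p of 0.05 between animals in limma, not all divided them alike. Cyp1b1, Rxra, Tgm2 (F = 8.70), Foxc1 and Nr2f2 were higher in 61, 64 and 66 than in 65 and 68. For Nr2f2 the gap was small (30.97 CPM in 66, 30.93 in 65), as it was for Foxc1 (21.98 CPM in 64, 21.84 in 65). Fabp5 was lowest in 61 (5.74 CPM) and highest in 65 (12.95 CPM), and Lpl was lowest in 66 (13.5 CPM).

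Genes with the most similar profiles were sought among 13132 named genes by Pearson's r of log2 levels over the 10 libraries, given as a description since libraries of 5 animals share composition and fellow eyes. For Aldh1a3 they were Capg (0.970) and the epithelial plakin Eppk1 (0.958). For Cyp26b1 they were Qk (0.961) and Dennd4c (0.950), and for Cyp26a1 Snx9 (0.963) and Csnk2a3 (0.959). Rarg ran closest to Fgfr1 (0.977) and Ephb3 (0.974), Rara to Pdlim7 (0.973) and Tob1 (0.963), and Dhrs3 to Pxn (0.971) and Plekhg2 (0.960). For Rarb they were Riox1 (0.948) and Gldn (0.937), for Aldh1a1 Zfp945 (0.930) and Snrpb2 (0.927), and for Aldh1a2 Tfcp2 (0.937) and Amigo3 (0.915).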

How the data were processed

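Per the labels, libraries came from 1 μg of total RNA by a stranded, ribosome-depleted protocol, and the extraction text speaks of retinae although the tissue label is RPE/choroid/sclera. The authors deposited normalized values that behave as CPM with 0.0001 added, which was subtracted. STAR, Partek and GRCm38 (mm10) are named in the submitters' processing notes, and the sources used here give no versions, roles, annotation or strand use. Between 0.5 and 20 steps, 89.1% to 90.1% of a library's values fell within 0.05 of a whole step, too few to recover reads for every gene.

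The 15414 genes averaging 1 CPM or more were tested as log2(CPM + 0.23) with limma 3.58.1 in R 4.3.3 (moderated along the mean level), modelling animal plus side and 4 residual degrees of freedom. A log2 difference on this scale understates changes of low genes, and p-values rest on 5 animals. The animal entered as a block because fellow eyes share an animal. The sex read from Xist and Y-linked RNA was discordant between fellow eyes in 0 of 5 animals. The correlation of fellow eyes' deviations was over 0.1 in 2 of 5 animals and ran from -0.189 to 0.272. In animal 61 it was 0.272, against at most -0.00572 with another animal's left eye. In animals 64, 65, 66 and 68 it was 0.113, 0.0536, -0.189 and -0.0547. The highest value with another animal's left eye was above it in these animals, at 0.267, 0.242, 0.398 and 0.389. The pairing was taken from the labels. All 45 pairs of libraries differed beyond counting noise (chi-square over its degrees of freedom ran from 12.0 to 64.5). Coordinates are as deposited (1-based, ends minus 1), and of 25686 genes matched to GENCODE M21, 99.44% of starts were equal. Exon lengths are unions of M21 exons. Promoters are RefSeq's.

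The members and gene lists were chosen with earlier results of these data known. Named besides the members were the 2 highest genes per list in CPM per kb, genes past the threshold and the 2 most similar genes per member. Cyp26c1, Xist, Rdh11, Rdh13, Adh7, Lpl, Scarb1, Fabp5, Foxc1 and Nr2f2 were added after their values were seen. Alternatives covered pseudocount, filter, scaling, moderation, array weights, the block and each animal or library left out, and the rod and surface epithelium covariates were added after the data were seen. The scripts were tested on simulated data. Figures used matplotlib 3.10.9 in Python 3.11.15.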

Additional observations from a re-analysis of the deposited data

Results flagged for a closer look

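In 3 of 20 sets of 5 libraries (10 genes, each in right and in left eyes), the end library stood apart from the nearest other by more of the range than Dixon's 95% limit allows, and about 1 such set is likely by chance. Aldh1a1 in the right eye of animal 61 was at 85.1 CPM, against 56.6 to 60.0 CPM in the other right eyes, and its left eye was also the highest at 93.1 CPM. Dhrs3 in the right eye of animal 68 was at 38.3 CPM, against 55.5 to 60.2 CPM in the other right eyes, and the left eye of that animal was the lowest left eye at 41.8 CPM. Crabp1 in the left eye of animal 65 was at 1.00 CPM, against 0.203 to 0.382 CPM in the other left eyes, while the right eye of that animal stood at 0.407 CPM.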

How the results depend on the processing

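The count of genes differing between right and left eyes was 0 in every alternative run, no replicate block included, and no difference of the 9 members passed in any of them. Since each animal has both eyes, dropping the block cannot move the estimate (-0.41 for Aldh1a3), and only the p-value could change. No call between the eyes did (Aldh1a3 adjusted p = 0.9998 in limma). Leaving out a single library likewise gave the same eye difference as leaving out its animal. The count of genes differing between animals (13) was 20 with array weights, 25 without the eye term, and 5 to 10 with an animal or library left out, where fewer samples enter. Small differences changed sign when an animal or library was left out, with ranges of -0.16 to 0.036 for Aldh1a2 (0.036 without animal 61, 0.0063 without 68), -0.023 to 0.31 for Cyp26a1 (-0.023 without 65), -0.063 to 0.023 for Cyp26b1 (0.023 without 64, 0.0012 without 68) and -0.079 to 0.013 for Rarb (0.013 without 68). Cyp26a1 was at -0.079 with the surface epithelium covariate. The cause was not tested. Cyp26b1 passed between animals in 5 alternatives, and the number of members under an unadjusted p of 0.05 in that test was 4 to 7 over all alternatives. Values under the 3-read floor of 0.0449 CPM cannot be told from 0.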

Other observations

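Among the genes of retinol conversion (3 of 11 tested) and of retinoid uptake and storage (2 of 12), 5 stood at an unadjusted p under 0.05 between the eyes. Of all genes tested, 2.79% did. The 5 are named here after their values were seen. The adjusted p of each was 0.9998 in limma. Adh7, an alcohol dehydrogenase of stomach and cornea that oxidises retinol, averaged 10.3 ± 9.07 CPM in right and 17.4 ± 3.99 CPM in left eyes (SD, n = 5 each; -1.11 ± 0.47, log2, SE). Rdh13, a mitochondrial retinol dehydrogenase, averaged 9.68 ± 0.754 CPM in right and 10.95 ± 0.364 CPM in left eyes (-0.18 ± 0.062, log2, SE). Rdh11, a retinaldehyde reductase, lay the other way, at 34.0 ± 2.35 CPM in right and 30.5 ± 1.48 CPM in left eyes (0.16 ± 0.066, log2, SE).

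Lpl, which releases fatty acids and aids uptake of retinyl esters, averaged 13.9 ± 3.22 CPM in right and 17.5 ± 2.26 CPM in left eyes (-0.35 ± 0.093, log2, SE). Scarb1, a lipoprotein receptor that takes up carotenoids, averaged 33.5 ± 2.17 CPM in right and 30.6 ± 1.64 CPM in left eyes (0.13 ± 0.050, log2, SE). Surface epithelium and adipocyte markers were looked at too, and none passed an adjusted p of 0.05 between the eyes in limma. All 8 surface epithelium markers were on average lower in the right eye, with a median difference of -1.03. Of all 15414 genes tested, 8320 were lower. Of these 8 markers, 0 had an unadjusted p under 0.05 in limma, and in animal 61 their sum was higher on the right. The summed adipocyte markers (6 of 7 listed, 2 tested) were at 52.3, 63.4, 46.3, 37.1 and 46.8 CPM in the right eyes of animals 61, 64, 65, 66 and 68 and at 64.6, 66.1, 52.7, 45.5 and 61.2 CPM in their left eyes, lower on the right in 5 of 5 animals. Of the 2 adipocyte genes tested, 1 was lower and 1 higher in the right eye, and 1 had an unadjusted p under 0.05 in limma (against 2.79% of all genes tested). The part of these tissues in the values was not tested.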
